A study of Mus musculus with 3 samples.

Results

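The 8 myogenic transcription factors and cofactors Myod1, Myf5, Myf6, Myog, Vgll2, Six4, Eya1 and Msc were followed in spinal cord RNA of C57BL/6 mouse embryos at embryonic day 13.5. They were found by gene name among the 51826 genes of the deposited tables, and each name matched 1 gene. There were 3 libraries, 1 for each genotype. One was wild type (WT), for which the labels name no allele. The dE3 library carried Nestin-Cre;Ctnnb1-floxed(Ex3), in which loss of exon 3 is a gain of function. The cKO library carried Nestin-Cre;Ctnnb1-floxed(Ex2-6), a loss of function. Ctnnb1 encodes β-catenin, the effector of canonical Wnt signalling, and Nestin-Cre acts mainly in neural progenitors. The number of embryos behind a library is not given in the sources used here.

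MyoD, Myf5 and Mrf4 (the product of Myf6) commit embryonic cells to the skeletal muscle fate, and myogenin (Myog) drives their differentiation into fibres. These 4 proteins form the MyoD family of basic helix-loop-helix factors, which pair with E proteins and bind the E-box. The homeodomain protein Six4 acts upstream with Eya partners, through the MEF3 element, and Vgll2 is a TEAD cofactor of muscle. Msc (musculin, or MyoR) is a basic helix-loop-helix repressor of the family's activity. The cord itself is nervous tissue. The myotome and the axial muscles beside it are the usual place of these factors, while Six4 and Eya1 are also made in sensory ganglia.

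The promoter of Myog carries the elements through which other members are known to act. It is shown because Myog had the most RNA per length of all members in the dE3 library, and that of Vgll2 is shown because Vgll2 had no count in WT. The windows hold the 250 bases before the RefSeq start site (GRCm38.p6), written 5′ to 3′ on the gene's strand. A window was found for 4 of the 8 members (Myf5, Myog, Vgll2 and Six4). Motifs were sought on both strands: the E-box CANNTG, its form CAGCTG, which every CANNTG search also finds, and MEF3 (TCAGGTTTC). Capitals mark the matches.
Myog, chr1:134289754-134290003, plus strand: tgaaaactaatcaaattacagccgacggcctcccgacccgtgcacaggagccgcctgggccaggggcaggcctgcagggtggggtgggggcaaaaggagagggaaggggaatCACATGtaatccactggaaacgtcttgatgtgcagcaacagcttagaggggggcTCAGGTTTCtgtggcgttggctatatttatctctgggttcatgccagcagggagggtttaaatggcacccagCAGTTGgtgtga
Vgll2, chr10:52022252-52022501, plus strand: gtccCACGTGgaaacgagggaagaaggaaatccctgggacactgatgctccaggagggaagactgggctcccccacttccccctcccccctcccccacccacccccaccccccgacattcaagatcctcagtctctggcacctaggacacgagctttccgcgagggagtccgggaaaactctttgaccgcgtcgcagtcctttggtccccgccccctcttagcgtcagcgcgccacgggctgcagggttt

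The Myog window held 1 MEF3 match, at chr1:134289920-134289928, and 2 E-boxes. Of 32817 such windows in the RefSeq table, 0.387% held a MEF3 match, 66.2% an E-box and 13.0% the form CAGCTG. Six4 had 2 annotated start sites, and the window before the inner one held MEF3 on the opposite strand. With 10 bases on either side, that site is shown because Six4 protein itself is known to bind MEF3.
Six4, chr12:73113326-73113354, minus strand: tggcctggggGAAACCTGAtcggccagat
No window of a member held CAGCTG, and that of Myf5 held none of the motifs. A match describes letters and not binding.

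Before the members, the libraries were checked for depth and for markers of the labelled tissue. Estimated counts summed to 32167470 in the WT library, 34790053 in dE3 and 33048837 in cKO. The 18074 genes with at least 20 counts in at least 1 library were taken as measured, and these include 6 of the members. All 17 markers of spinal cord were present in every library, with summed levels of 8789 (WT), 8129 (dE3) and 8178 (cKO) CPM (counts scaled to a common library size). Values given as 3 numbers below keep that order. None of the 17 was called in either mutant against WT, with medians of -0.14 and -0.21 on the log2 scale, and 1 was lower in dE3 than in cKO. A tag in the library names reads L3 for cKO and L2 for the others, and it cannot be told apart from the cKO genotype. With 1 library per genotype there is no replicate check and no p-value. Every interval given is at 95% and covers counting error only, and values compare these libraries. To be called higher or lower, a measured gene needed a CPM ratio of at least 2 in that direction and an interval without 1. A gene at 0 was set at a floor of 3 counts, also in medians.

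The determination factor Myod1 (ENSMUSG00000009471, GRCm38 chromosome 7, 46376474 to 46379099, plus strand) and the differentiation factor Myog (ENSMUSG00000026459, chromosome 1, 134289989 to 134292548, plus strand) were higher in dE3 than in either other library. Myod1 had 11, 187 and 30 counts. Myog had 21, 332 and 79. WT was lowest and dE3 highest for both, with cKO between them. In bulk RNA, a different number of muscle cells and a different amount of RNA per cell cannot be told apart.

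Myod1 was 15.5-fold higher (8.47 to 31.6) in dE3 than in WT, and Myog 14.4-fold higher (9.27 to 23.6). In cKO the ratios to the same WT library were 2.64 (1.29 to 5.84) for Myod1 and 3.64 (2.23 to 6.20) for Myog. Set directly against cKO, dE3 held 5.87-fold more Myod1 (3.98 to 8.95) and 3.96-fold more Myog (3.09 to 5.13). All 6 of these ratios were called.

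Myf5 (ENSMUSG00000000435, chromosome 10, 107482908 to 107486134, minus strand) and Myf6 (ENSMUSG00000035923, 107492853 to 107494737, same strand), the other determination factors, lie 6718 bases apart and were close to the limit of detection. Myf5 had 0, 17 and 3 counts, and Myf6 had 0, 7 and 0. Neither reached 20 counts, so neither was measured. A count of 0 was set at a floor of 3 counts, which is 0.0939 CPM in WT and 0.0908 CPM in cKO. The exact upper 95% limit of a 0 was 0.115 CPM in WT and 0.112 CPM in cKO. Set against the floor in WT, the dE3 ratio was 5.17 for Myf5 and 2.13 for Myf6. The lower 95% limits from the counts were 3.76 and 1.31. The ratio of Myf5 in dE3 to that in cKO was 5.34 (1.54 to 28.4).

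**Figure D1:**
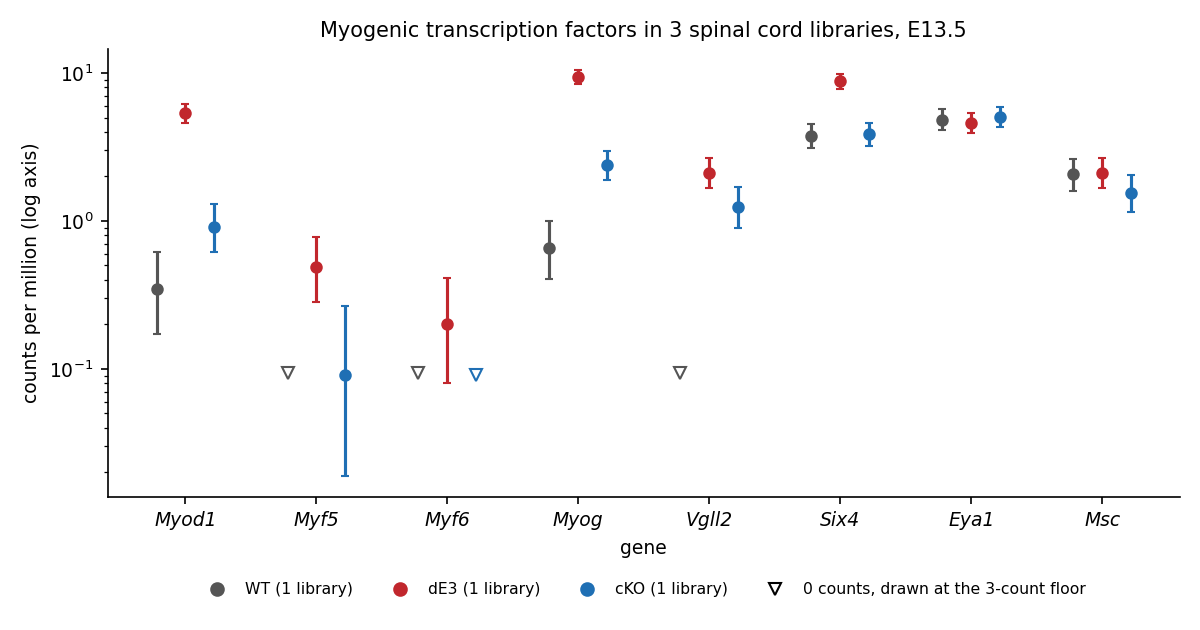
Level of each member in CPM (log axis) in the WT, dE3 and cKO libraries, 1 library each. Points are levels with exact Poisson 95% intervals, and open triangles mark 0 counts at the 3-count floor. Myod1 and Myog are highest in dE3, whereas Eya1 and Msc have overlapping intervals in all 3 libraries.

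The make-up of the MyoD family was compared between libraries by the share of each gene, and no difference was resolved. The 4 genes together had 32, 543 and 112 counts. Myog made up 65.6% of these counts in WT (exact Clopper-Pearson interval 46.8 to 81.4), 61.1% in dE3 (56.9 to 65.3) and 70.5% in cKO (61.2 to 78.8). Myod1 made up 34.4% in WT (18.6 to 53.2), 34.4% in dE3 (30.4 to 38.6) and 26.8% in cKO (18.9 to 36.0). All intervals overlapped between libraries, though such overlap does not measure the error of a difference. Myf5 was 3.13% of the family in dE3 (1.83 to 4.97) and 2.68% in cKO (0.556 to 7.63), and Myf6 was 1.29% in dE3 (0.520 to 2.64). The 0 counts in WT leave each of those genes an exact upper limit of 10.9% there.

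Levels of different genes can be compared per length, in the deposited TPM values, which share out a fixed total over transcripts. On that scale the order of the members differed between libraries. In dE3, Myog led at 15.8 TPM, Myod1 followed at 7.15, and the intervals of both lay apart from each other and from the next gene. Eya1 (4.02), Vgll2 (3.68), Six4 (3.39) and Msc (3.28) came after them, with overlapping intervals between neighbours, and then Myf5 (0.574) and Myf6 (0.388). In WT the order began with Msc (3.24 TPM) and Eya1 (3.12), which overlapped. Six4 (1.43), Myog (1.07) and Myod1 (0.453) followed, apart from Eya1 but each overlapping the next, and Myf5, Myf6 and Vgll2 were listed at 0. In cKO, Eya1 (4.75 TPM) and Myog (3.94) led with overlapping intervals. Msc (2.25), Vgll2 (1.82), Six4 (1.47) and Myod1 (1.20) overlapped from one to the next, Myf5 stood at 0.101 and Myf6 was listed at 0. The repressor Msc thus stood above Myog and Myod1 in WT and below both in dE3.

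Vgll2 (ENSMUSG00000049641, chromosome 10, 52022502 to 52028471, plus strand), the TEAD cofactor whose promoter is printed above, had 0, 74 and 41 counts. It was present in both mutant libraries and not detected in WT. With WT set at the floor of 3 counts, the ratio to WT was 22.5 for dE3 and 13.2 for cKO. The lower 95% limits from the counts were 17.8 and 10.3. Between the mutant libraries the ratio was 1.70 (1.15 to 2.56) toward dE3, short of 2-fold, and its interval lay below that of Myog (3.09 to 5.13). In deposited TPM the log2 ratio was 1.02, just past 2-fold. Of its 2 transcripts, ENSMUST00000058347 had 19 counts in dE3 and 0 in cKO, while ENSMUST00000163017 had 55 and 41.

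Six4 (ENSMUSG00000034460, chromosome 12, 73099609 to 73113456, minus strand), the homeobox factor upstream of the MyoD family, had 120, 308 and 128 counts. WT and cKO differed by less than counting error, with a ratio of 1.03 (0.798 to 1.34), and dE3 was highest. The dE3 library held 2.34-fold more than WT (1.89 to 2.91) and 2.27-fold more than cKO (1.84 to 2.81), and both ratios were called. Without the main transcript, which held 279 of the 308 counts in dE3, the log2 ratio of dE3 to cKO was 0.38 and the call ended. Against WT it was 1.72, on 29 and 8 counts.

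Eya1 (ENSMUSG00000025932, chromosome 1, 14168954 to 14310235, minus strand), the phosphatase and coactivator that partners Six4, had 155, 162 and 166 counts. The gene totals differed by less than counting error. The dE3 ratio to WT was 0.953 (0.760 to 1.20) and the cKO ratio 1.04 (0.827 to 1.30), so a 2-fold difference lay outside both counting intervals. The counts were assigned to different transcripts in the libraries. ENSMUST00000168081 took 142 of 155 counts in WT (91.6%, 86.1 to 95.5), 48 in dE3 (29.6%, 22.7 to 37.3) and 3 in cKO (1.81%, 0.374 to 5.19). ENSMUST00000080664 took 0, 46 and 81. By TPM, which divides by transcript length, the dE3 library stood 0.36 above WT on the log2 scale for Eya1, and cKO 0.60. Without ENSMUST00000168081, the log2 ratio was near 3 in dE3 and 3.60 in cKO, past the threshold. How the authors divided reads between transcripts is not given in the sources used here.

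Msc (ENSMUSG00000025930, chromosome 1, 14753346 to 14755992, minus strand), the repressor, had 66, 74 and 51 counts. None of its ratios was called: 1.02 (0.724 to 1.45) for dE3 over WT, 0.748 (0.508 to 1.09) for cKO over WT and 1.37 (0.944 to 1.99) for dE3 over cKO. The 3 levels differed by less than their counting error. Msc overlaps the antisense gene Gm9947. Of its 50-base words, 19.0% were shared with other genes, 490 of the 491 with Gm9947. Gm9947 had 15, 10 and 15 counts, and with strand use in counting not given, the reads of the pair cannot be told apart. Six4 shared 0.486% of its words with other genes, and the remaining 6 members shared none.

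**Figure D2:**
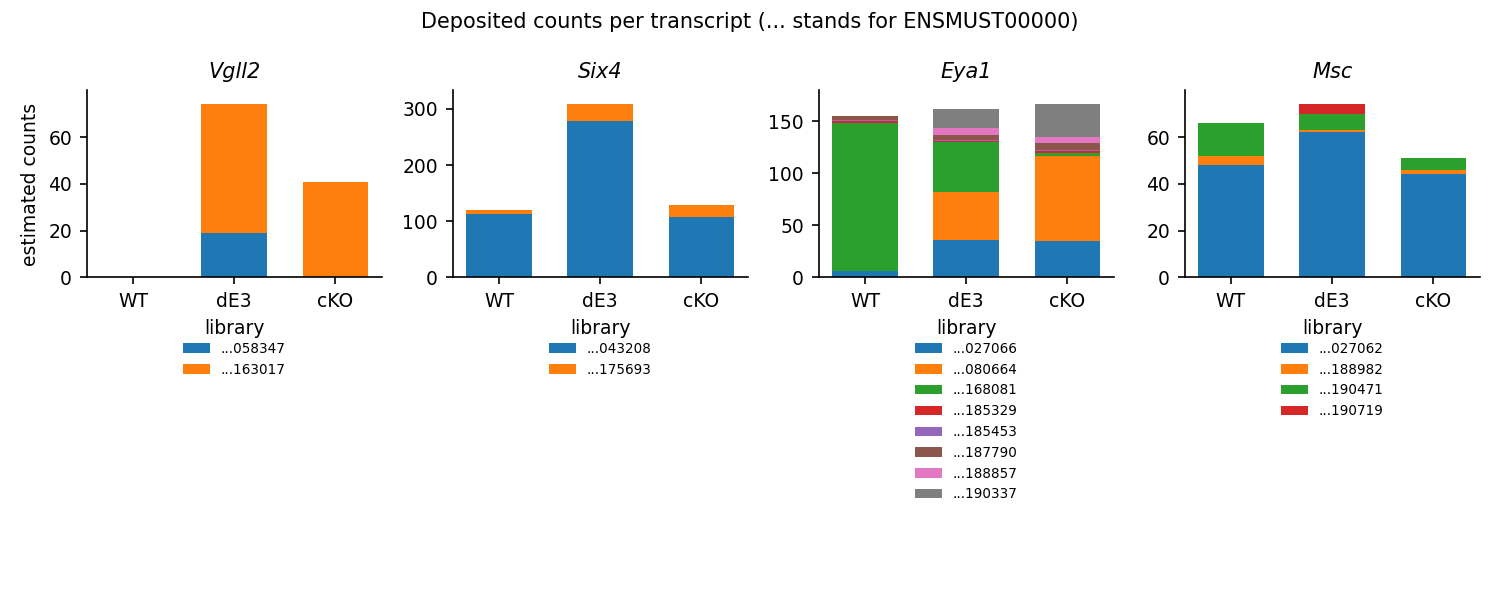
Deposited estimated counts per transcript (stacked bars) of Vgll2, Six4, Eya1 and Msc in the WT, dE3 and cKO libraries. The gene totals of Eya1 are level, at 155, 162 and 166, while most counts sit in 1 transcript in WT only; 1 transcript of Six4 holds most of its counts throughout.

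Counted over the 6 measured members, 4 were higher in dE3 than in WT (Myod1, Myog, Vgll2 and Six4), 0 lower and 2 neither, where 6.52% of all measured genes were called higher, 3.78% lower and 10.3% either way. In cKO against WT, 3 were higher (Myod1, Myog and Vgll2) and 0 lower, where 3.48% of all measured genes were called higher, 3.41% lower and 6.89% either way. In dE3 against cKO, 3 were higher (Myod1, Myog and Six4) and 0 lower, where the background was 6.62% higher, 4.38% lower and 11% either way. The median log2 ratio was 2.54 for dE3 over WT, 0.73 for cKO over WT and 0.97 for dE3 over cKO, and that of all measured genes was 0.00, 0.00 and 0.02. The first and second of these comparisons share the WT library. Vgll2 (0 counts in WT) and Myod1 (11) were below the minimum count for a measured gene in WT. Both were measured only through the mutant libraries, where they were higher, so the filter itself favoured these calls over WT. The numbers of members called therefore describe 6 genes and lend no support to a difference. At a 4-fold threshold 3, 1 and 1 members were called. Of dE3 over cKO, 5 were called when no minimum count was set, Myf5 and Myf6 among them.

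**Figure D3:**
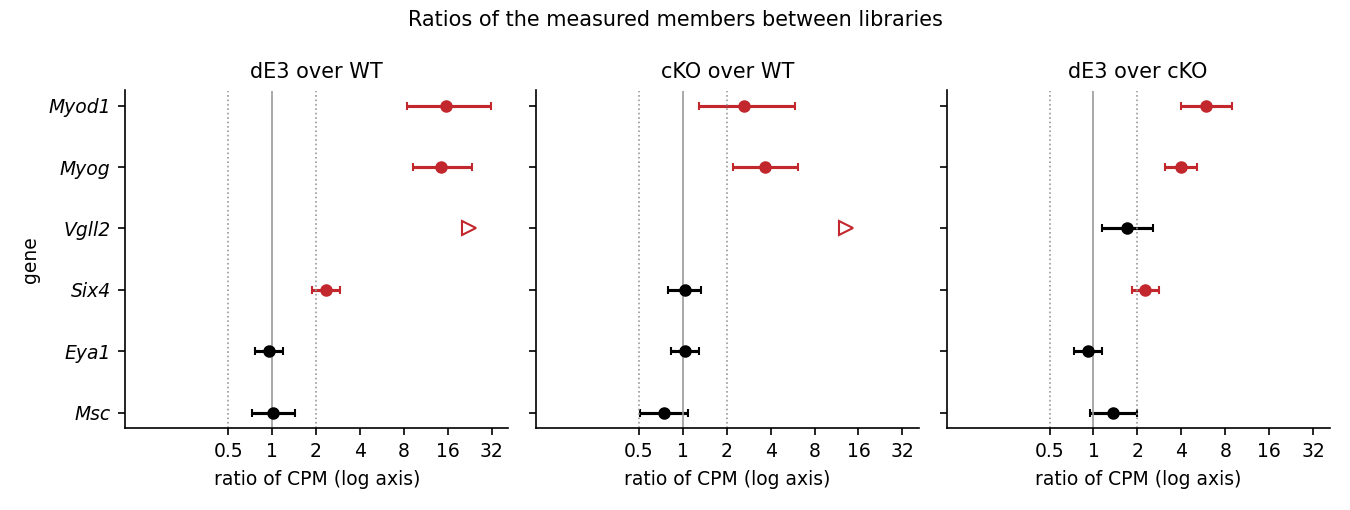
Ratios of CPM between libraries for the 6 measured members (log axis), with exact 95% counting intervals. Red marks called genes, open triangles are ratios with WT set at 3 counts where it had 0, and dotted lines stand at 0.5 and 2. Myod1 and Myog lie right of 2 in all 3 panels, and Eya1 and Msc lie between the dotted lines.

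Muscle differentiation genes, many of which these factors are known to switch on, were largely higher as well. Of 29 measured genes on that list, 26 were higher in dE3 than in WT and 0 lower, with a median log2 ratio of 3.20. In cKO against WT, 17 were higher and 1 lower (median 1.47), and in dE3 against cKO 27 were higher and 0 lower. For this list and those below, the share of all measured genes called higher was 6.52% in dE3 and 3.48% in cKO, against WT. In dE3 against cKO that share was 6.62%. Listed genes below the minimum count in WT, such as Tnni1, were measured only through a mutant library. For such genes the filter favoured a call of higher over WT, here and in the lists below. Ckm, Smpx, Tnni2, Cav3, Myoz2, Klhl41 and Cacna1s were measured only through dE3. For them, and for such genes in the lists below, the filter favoured a call of higher in dE3 against cKO as well. The summed level of all 30 muscle differentiation genes was 52.5, 298 and 97.4 CPM. Tnni1, Tnni2, Tnnc2, Ckm, Cav3 and Smpx were at 0 in WT, Ckm was at 0 in cKO, and none was at 0 in dE3. Actc1, the fetal sarcomeric actin gene, had 70, 1504 and 322 counts. Myh3, the embryonic myosin heavy chain gene, showed 80, 1548 and 356. Ryr1, the calcium release channel gene, which neurons also express, had 624, 693 and 538 counts and made up the largest part of the WT sum.

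Set against these structural genes in the same library, the MyoD family had 19.1 counts per 1000 muscle differentiation counts in WT (13.0 to 27.0), 52.0 in dE3 (47.6 to 56.7) and 34.8 in cKO (28.6 to 42.1). The 3 intervals did not overlap. The values depended on the unit in every library and on the genes in the list. Ryr1 was left out after the data were seen. Without Ryr1 the WT value was 30.4 (20.7 to 43.2), and its interval then overlapped that of cKO (41.8, 34.3 to 50.5). The dE3 value (55.7, 51.0 to 60.7) stayed apart from both. Without genes known from heart, the values were 24.1 in WT (16.4 to 34.2), 74.7 in dE3 (68.3 to 81.5) and 48.3 in cKO (39.6 to 58.3). By TPM, which gives no interval, the WT value was 42.3. In TPM the cKO value was 49.2 and the dE3 value 63.0. Myod1 alone went from 9.33 per 1000 in cKO (6.28 to 13.3) to 17.9 in dE3 (15.4 to 20.7). Vgll2 went the other way, from 12.7 in cKO (9.13 to 17.3) to 7.09 in dE3 (5.56 to 8.90). Six4, Eya1 and Msc had 71.6, 92.4 and 39.4 per 1000 in WT, 39.8, 51.6 and 15.9 in cKO, and 29.5, 15.5 and 7.09 in dE3. The gene totals of Eya1 and Msc differed by less than counting error. The muscle counts they were divided by were 1677 in WT, with 624 of these in Ryr1, 10444 in dE3 and 3216 in cKO.

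**Figure D4:**
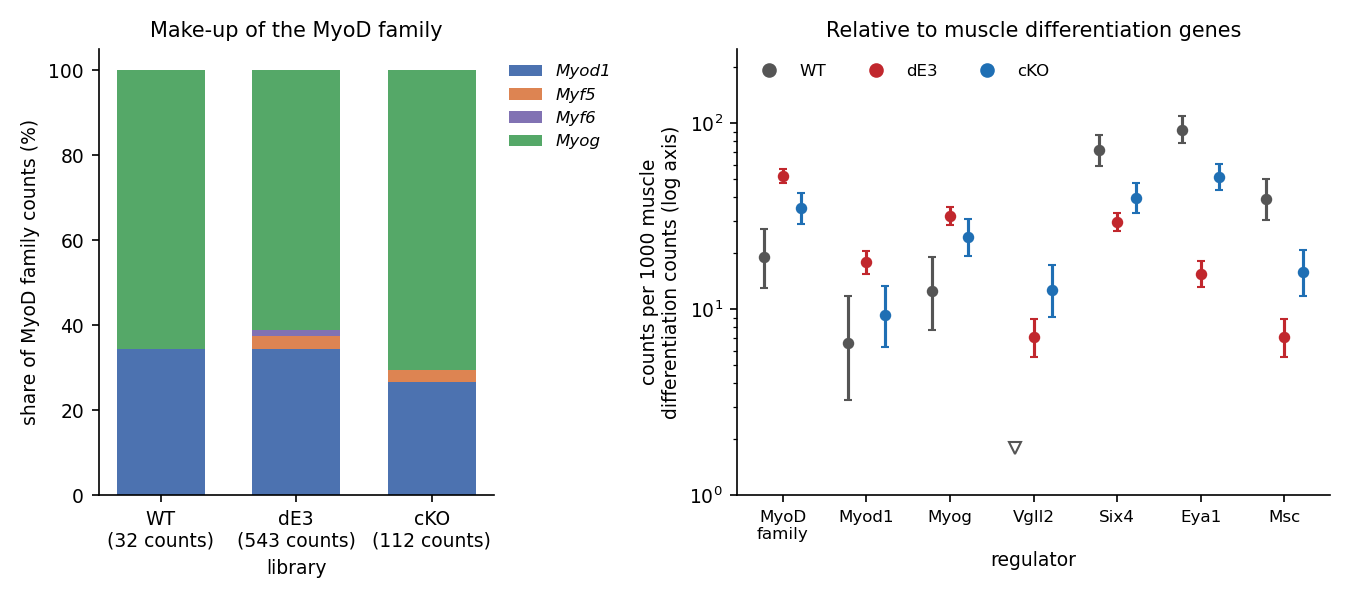
Left, share of each gene in the summed counts of Myod1, Myf5, Myf6 and Myog in each library (%). Right, counts of regulators per 1000 muscle differentiation counts (log axis) with 95% counting intervals, where the open triangle marks Vgll2 at 0 in WT, drawn at 3 counts. Myog holds 61.1% to 70.5% of the family everywhere, and the family per 1000 is highest in dE3, at 52.0.

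Genes that act with or before the members showed a mixed pattern. Of 31 measured partners, 11 were higher in dE3 than in WT and 1 lower, with a median log2 ratio of 0.43. Pax3, which lies upstream of Myod1 in the somite and is also a dorsal neural gene, had 610, 2115 and 517 counts, 3.16-fold more in dE3 than in WT (2.89 to 3.46). Pax7, its relative of muscle stem cells and the dorsal cord, was the gene lower, at 212, 60 and 271 counts. The somite gene Meox1 was 10.8-fold higher in dE3 (5.65 to 23.0) and 3.87-fold higher in cKO (1.90 to 8.68), and Meox2 was 2.63-fold (1.89 to 3.70) and 3.37-fold higher (2.45 to 4.71).

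Among the other partners, Smyd1, a methyltransferase of striated muscle, had 34, 164 and 50 counts and was 4.40-fold higher in dE3 (3.02 to 6.56). Eya4 and Six2, relatives of 2 members, were 4.49-fold (3.50 to 5.82) and 5.32-fold higher (2.21 to 15.5) in dE3, while Six5 was 2.64-fold higher (2.27 to 3.08). The E protein genes Tcf12 and Tcf4, whose products pair with the MyoD family and with proneural factors, were 2.41-fold (2.35 to 2.47) and 2.31-fold higher (2.22 to 2.42). Tead1, a TEAD factor, was 2.82-fold higher in dE3 (2.61 to 3.05) and 2.02-fold lower in cKO (1.80 to 2.28). Myocd, a coactivator of heart and smooth muscle, was 2.69-fold higher in dE3 (1.64 to 4.59). By mean CPM over the 3 libraries, the most abundant partner that was not called was Carm1, an arginine methyltransferase, at a ratio of 1.29 in dE3 and 1.21 in cKO. In cKO only Meox1 and Meox2 of the 31 were called higher, and Tead1 lower. Of all measured genes, 3.48% were called higher in cKO and 3.41% lower. In dE3 against cKO, 7 partners were higher and 1, Pax7, lower. Six2, among the 7, was measured only through dE3, so the filter favoured its call.

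Of 17 measured inhibitors of myogenic factors, 6 were higher in dE3 than in WT and 0 lower, with a median of 0.53. Twist1, which binds E proteins and blocks MyoD in mesenchyme, had 138, 1153 and 222 counts and was 7.62-fold higher in dE3 (6.38 to 9.16). Its relative Twist2 was 3.80-fold higher (2.82 to 5.19), Snai1 3.63-fold (2.71 to 4.93) and Mdfic 3.55-fold (2.70 to 4.73). Sim2 (3 counts in WT and 60 in dE3) and Mstn (6 and 32), which encodes the muscle growth inhibitor myostatin, were the others. In cKO, Snai1 (3.27-fold, 2.43 to 4.46) and Mdfic (2.40-fold, 1.80 to 3.25) were called higher and no gene lower. In dE3 against cKO 4 were higher (Twist1, Twist2, Mstn and Sim2) and 0 lower. Mstn and Sim2 were measured only through dE3, so the filter favoured their calls. The 3 most abundant inhibitors, Zeb2, Id4 and Zeb1, are also neural and had ratios of 1.10, 0.697 and 0.862 in dE3. Over all measured genes, 6.52% were called higher in dE3 and 3.48% in cKO, each against WT.

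Among 15 measured myoblast fusion and surface genes, dE3 was called higher than WT for 5 and lower for 0, with a median of 0.56. Mymk (myomaker), which fuses myoblasts, was 5.62-fold higher (3.03 to 11.4), and its partner Mymx (myomerger) had 0, 35 and 11 counts. Cdh15, the M-cadherin gene, was 3.41-fold higher (2.46 to 4.82) in dE3 and 2.10-fold higher (1.47 to 3.03) in cKO. The acetylcholine receptor genes Chrna1 and Chrng had 5 and 0 counts in WT, 38 and 46 in dE3, and 32 and 12 in cKO. In cKO 4 of these genes were higher (Mymx, Cdh15, Chrna1 and Chrng) and 1 was lower, the receptor kinase gene Musk, with 16 counts in WT and 2 in cKO. In dE3 against cKO 4 were higher (Mymk, Mymx, Musk and Chrng) and 0 lower. All 4 were measured only through dE3, so the filter itself favoured these calls. The most abundant genes of the list, Ncam1, Lrrn1 and Cdh4, are also neural and were not called in either mutant. The shares called higher over all measured genes were 6.52% in dE3 and 3.48% in cKO, each against WT.

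Markers of other tissues that lie around the cord were also counted. Against WT, 6.52% of all measured genes were called higher in dE3 and 3.48% in cKO. Of the 16 measured genes of cartilage and vertebra, 16 passed as higher in dE3 and 13 in cKO, each against WT. Their summed levels were 238, 1299 and 582 CPM, with Snorc and Ucma at 0 in WT and none of 18 at 0 in the mutants. The cartilage collagen gene Col2a1 alone had 2833, 15132 and 7734 counts, and Col11a1 and Col9a2 were 3.73-fold and 3.46-fold higher in dE3 than in WT. Of 10 measured epidermis genes, 8 were higher in dE3 and 2 in cKO, and 1 was lower in cKO, with sums over 12 genes of 12.0, 32.8 and 14.1 CPM. The keratin gene Krt5 had 65, 270 and 64 counts, Krt8 was at 0 in WT and Cldn6 in cKO. Tendon and connective tissue genes had sums of 750, 1493 and 1640 CPM, with 6 of 14 higher in dE3 and 4 in cKO. Their most abundant genes, Col3a1, Col1a2 and Col1a1, reached 1.93, 1.85 and 1.88 times WT in dE3, short of a call, and 2.33, 2.42 and 2.54 times WT in cKO. Those of meninges and mesenchyme had sums of 891, 1548 and 1100 CPM, with 4 of 14 higher in each, Igf2 and, in dE3, Twist1 among them. The part of these tissues in the members' levels was not tested.

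The summed level of sensory ganglion markers was highest in cKO, and Six4 and Eya1 are known to be made in these ganglia. Of 15 measured dorsal root ganglion genes, 0 were higher in dE3 and 2 in cKO, with medians of -0.37 and 0.56 and sums of 1169 (WT), 888 (dE3) and 1387 CPM (cKO). In dE3 against cKO, 6 of the 15 were lower and 0 higher, where 4.38% of all measured genes were called lower. The most abundant of them, Ntrk2, Ntrk3 and Prph, had ratios of 0.553, 1.02 and 0.753 in dE3, and none of the 15 was at 0. Of 9 measured heart and smooth muscle genes, 2 were higher and 1 lower in dE3 and 4 higher and 1 lower in cKO, with sums of 105, 156 and 125 CPM. Acta2, the smooth muscle actin gene, had 134, 727 and 444 counts. The heart genes Nkx2-5, Gata4 and Myl7 were at 0 in all 3 libraries, but other heart genes were detected. In WT and dE3, Nppa had 36 and 11 counts, Myh6 20 and 35, Tbx20 16 and 28, and Hand2 0 and 31. All 10 Wnt feedback genes passed as higher in dE3, against 1 of 10 in cKO, with sums of 284, 2567 and 311 CPM. Nkd1, a Wnt antagonist, had 1563, 28194 and 1606 counts. The part of these genes and tissues in the members' levels was not tested.

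**Figure D5:**
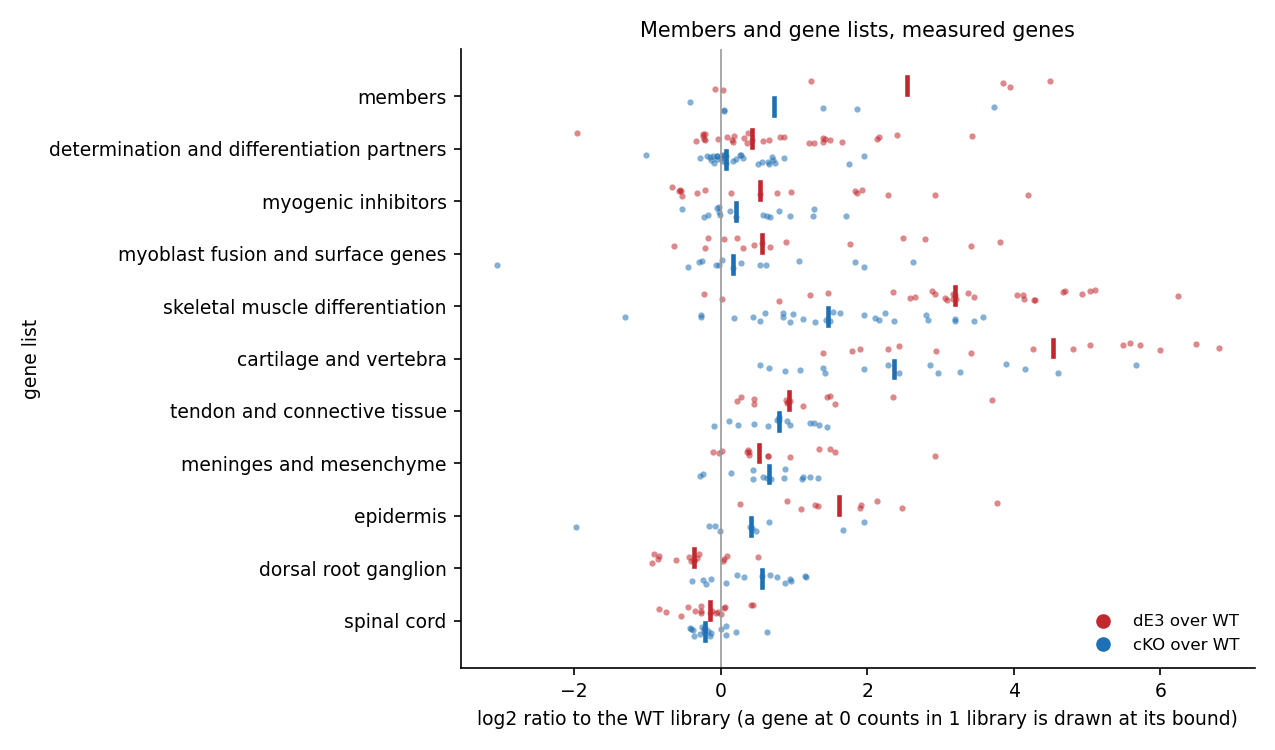
Log2 ratio to the WT library for the measured members and genes of 10 lists, red for dE3 and blue for cKO. Each point is 1 gene and each bar the median of its list. The median of muscle differentiation genes stands at 3.20 (dE3) and 1.47 (cKO) and that of cartilage at 4.53 and 2.36, while spinal cord markers stand at -0.14 and -0.21.

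The genes whose levels were spread over the 3 libraries most like the summed MyoD family were named by distance. Of the family's CPM summed over the libraries, 5.04% lay in WT, 77.9% in dE3 and 17.1% in cKO. Among 13423 genes with at least 100 counts over the libraries, the 8 nearest were Osr2, Actc1, Tnfaip2, Myh3, Fndc3c1, Hapln1, Tnnc1 and Col23a1. Their Euclidean distances between shares, each computed over the 3 libraries, ran from 0.0119 to 0.0399. They include the 3 sarcomere genes Actc1, Myh3 and Tnnc1, the cartilage link protein gene Hapln1, and Osr2, a transcription factor of connective tissue. Such a likeness rests on 3 values and describes only these libraries.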

How the data were processed

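Spinal cord RNA was extracted with Trizol and made into mRNA libraries, per the labels' protocols. CASAVA, Bowtie2 2.3.2 and build GRCm38.p6 are named, with no roles, in the submitters' processing notes. Quantification tool, annotation, strand use: not given in the sources used here. The authors deposited estimated counts per gene and transcript, with TPM and FPKM values, per the file headers. The deposited counts are whole numbers. About 61% of transcripts with 1 count had FPKM values of the authors worth less than 0.5 reads, so small counts may be rounded up.

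Counts were scaled by TMM over measured genes (edgeR 4.0.16, R 4.3.3), with factors of 0.993 (WT), 1.01 (dE3) and 0.999 (cKO). Ratios had exact conditional binomial intervals (SciPy 1.17.1). No molecular identifiers are named, so reads may repeat a molecule and intervals cover counting error only. The members and the 12 lists were chosen with earlier results of these data known. Of 211 listed symbols, 210 matched. The rule for named genes took from each list the 3 most abundant measured genes and, for partners, inhibitors and fusion genes, those called; for the lists of other tissues the text prints some of these. Alternatives used unscaled library sizes, DESeq2 1.42.0 size factors, TPM, fewer transcripts, other thresholds and minimum counts. Overlaps and words came from GENCODE vM21 (GRCm38), promoters from RefSeq.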

Additional observations from a re-analysis of the deposited data

How the results depend on the processing

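No paired analysis was possible because each genotype has 1 library. For the 6 measured members, library sizes with no TMM factor, DESeq2 size factors and counts lowered by 1 per transcript (an alternative added after seeing the data) left every ratio within its counting interval. At a 4-fold threshold 1 member was called in cKO over WT and 1 in dE3 over cKO, and with no minimum count 5 were called in dE3 over cKO. Without the transcript that differed most, the median log2 ratio of dE3 over cKO was 0.54. That of cKO over WT was 1.40, but without Vgll2, whose remaining transcript had 0 counts in both libraries. In dE3 over WT, 5 members were called under this setting, with Eya1 past the threshold. By TPM, Myod1 was 29.9% and Myog 66.1% of the MyoD family in dE3. Per 1000 muscle differentiation counts, the family stood by TPM at 42.3 (WT), 63.0 (dE3) and 49.2 (cKO). Without genes known from heart it stood at 74.7 in dE3 and 48.3 in cKO, and without Ryr1, a choice made after seeing the data, at 30.4 in WT. The cause was not tested. Depth limits Myf5 and Myf6, whose highest counts were 17 and 7.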
